A study of Mus musculus with 40 samples.

Results

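The cytosolic ribosomal protein genes were followed in the brain of Df(16)A/+ mice, which carry a heterozygous deletion on chromosome 16 that matches the human 22q11.2 deletion. Members were the probe sets whose annotation gave a single gene symbol that starts with Rpl or Rps and a digit, or is Rplp0, Rplp1, Rplp2 or Rpsa, leaving out the Rps6k kinases and pseudogenes named -ps. They numbered 106 probe sets for 50 genes, among 45101 probe sets and 18193 named genes on the array. A further 110 ribosomal protein probe sets, for 46 genes, were left out by this rule because the annotation gave several genes for each. As a result 31 ribosomal protein genes had no member probe set, Rplp1, Rpl5 and Rps27a among them. Rps19bp1 met the rule by its name but encodes a protein that binds Rps19 and is not a ribosomal subunit. Rps4l also met it, and the RefSeq table of assembly GRCm38.p6 lists that gene as a transcribed pseudogene.

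Total RNA of the prefrontal cortex and of the hippocampus was measured on Affymetrix Mouse430_2 arrays, 1 array per tissue sample. The 4 groups were wild-type prefrontal cortex, Df(16)A/+ prefrontal cortex, wild-type hippocampus and Df(16)A/+ hippocampus, each with n = 10 arrays. All mice were untreated C57BL/6 males 8 weeks old, and the wild-type controls were littermates of the mutants. The deletion was constitutive, so every cell type of the dissected tissue carried it. The deposited unit is the log2 GCRMA signal. A probe set was tested where at least 10 arrays of a region read over 4 (log2), and a call is a Benjamini-Hochberg adjusted p under 0.05 by limma over all tested probe sets of that region. The regions' signals were on different scales, so levels are not set against each other between regions, nor between genes.

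Cytosolic ribosomes are built from a small and a large subunit, each of ribosomal RNA and many proteins that are needed in equal numbers. Most ribosomal protein mRNAs begin with a run of pyrimidines, the terminal oligopyrimidine tract, through which mTOR and Larp1 adjust their translation together. In neurons these mRNAs are also found in dendrites and axons, where ribosomes make protein near synapses.

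The region around the start of transcription was searched for this tract, and it is printed for 10 of the genes described below, with and without a run. RefSeq promoter entries (GRCm38.p6) were found for 44 of the 50 genes. In a window of 30 bases, 15 on each side of the annotated start and read along the gene's strand, 19 of the 44 genes (43.2%) held an unbroken run of at least 8 bases that were all C or T. The other 25 held none of that length. Of 27025 genes with an entry, 3760 (13.9%) did. A run of at least 8 bases that were all A or G, which is the same motif on the other strand, was held by 1 of the 44 (2.27%) and by 15.3% of all genes. The longest C or T run (the first of equal length) is in capitals:
Rpl22l1 (chr3:28805493-28805522, plus strand): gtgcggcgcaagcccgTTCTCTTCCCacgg
Rpl27a (chr7:109519180-109519209, plus strand): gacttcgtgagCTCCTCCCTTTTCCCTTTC
Rpl35 (chr2:39005117-39005146, minus strand): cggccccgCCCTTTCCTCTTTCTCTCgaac
Rps6 (chr4:86857353-86857382, minus strand): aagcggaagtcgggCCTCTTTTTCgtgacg
Rps10 (chr17:27635230-27635259, minus strand): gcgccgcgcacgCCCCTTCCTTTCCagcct
Rps18 (chr17:33955651-33955680, minus strand): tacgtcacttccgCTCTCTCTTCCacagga
Rpl27 (chr11:101442230-101442259, plus strand): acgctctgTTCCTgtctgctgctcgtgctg
Rpl37 (chr15:5116598-5116627, plus strand): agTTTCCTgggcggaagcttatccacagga
Rpl22 (chr4:152324421-152324450, plus strand): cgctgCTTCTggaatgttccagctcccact
Rpl7l1 (chr17:46782642-46782671, minus strand): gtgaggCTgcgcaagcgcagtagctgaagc
The first 6 hold such a run at or close to the start. The windows of Rpl27, Rpl37, Rpl22 (at both of its 2 annotated starts, of which 1 is printed) and Rpl7l1 held none of that length. A match describes the sequence and does not show a site in use.

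The filter on low values left 89 probe sets for 46 genes in each region, and 17 probe sets stayed below it. The genes without a tested probe set were Rpl3l and Rpl39l, the forms known from muscle and from testis, and Rps16 and Rps27. The single Rpl3l probe set read 2.46 to 2.69 over the prefrontal arrays and 2.67 to 3.03 over the hippocampal ones. Rps27, a small-subunit protein that every cell uses, read 3.00 to 3.19 over all 40 arrays on its only member probe set. That is below the filter in every array and gives no level for the mRNA.

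Arrays were hybridized in 5 runs, taken from the shared hybridization times in the array records, and on chips of 5 lots. For the prefrontal cortex, 3 wild-type arrays and 1 Df(16)A/+ array came from run 3, 7 wild-type and 5 Df(16)A/+ arrays from run 4, and 4 Df(16)A/+ arrays alone from run 5. Chip lot 1 held 4 wild-type and all 10 Df(16)A/+ prefrontal arrays, and lot 2 held the other 6 wild-type arrays. For the hippocampus, run 2 gave 9 wild-type and 2 Df(16)A/+ arrays, while the other 8 Df(16)A/+ arrays were all from run 3 and 1 wild-type array was from run 1. Mrpl40, a gene of the deleted interval, read 36.6% (prefrontal) and 42.1% (hippocampal) of the wild-type signal, which matches the labels. All 8 hippocampal marker genes passed the filter in the hippocampus and 4 of the 8 in the prefrontal cortex, where Prox1, Lct, Dsp and Spink8 did not. All 6 cortical markers passed it in the prefrontal cortex, but 5 of them passed it in the hippocampus too, all except Foxp2. Some arrays stood apart in these markers. Prefrontal Df(16)A/+ replicate 7 had a summed log2 signal of 24.4 over 5 olfactory bulb markers and 27.6 over 6 choroid plexus markers, where the other prefrontal arrays reached at most 18.5 and 19.5. Wild-type replicate 7 of the prefrontal cortex had a microglial sum of 73.6, with all other prefrontal arrays at 69.3 or less, and wild-type replicate 6 of the hippocampus one of 66.7, with the others at 63.0 or less.

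In the prefrontal cortex the ribosomal protein mRNAs were lower by small amounts in Df(16)A/+ mice. Of 89 probe sets, 20 fell and 1 rose, in 18 genes. The median difference was -0.09 (log2, Df(16)A/+ minus wild type), and 83 of 89 differences were below 0. Over all 21653 probe sets tested, 18.5% were called in either direction, 12.5% lower and 5.94% higher, with a median difference of -0.02 and 57.1% below 0. The falls among members ran from -0.10 to -0.52, or 93.3% to 69.9% of the wild-type signal, and none passed 1.5-fold. Without Df(16)A/+ replicate 7 the count of calls was 20 and the median -0.09, and without wild-type replicate 7 they were 19 and -0.08. A lower signal from a tissue homogenate can come from fewer cells of a type or from less RNA per cell, and these cannot be told apart.

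**Figure D1:**
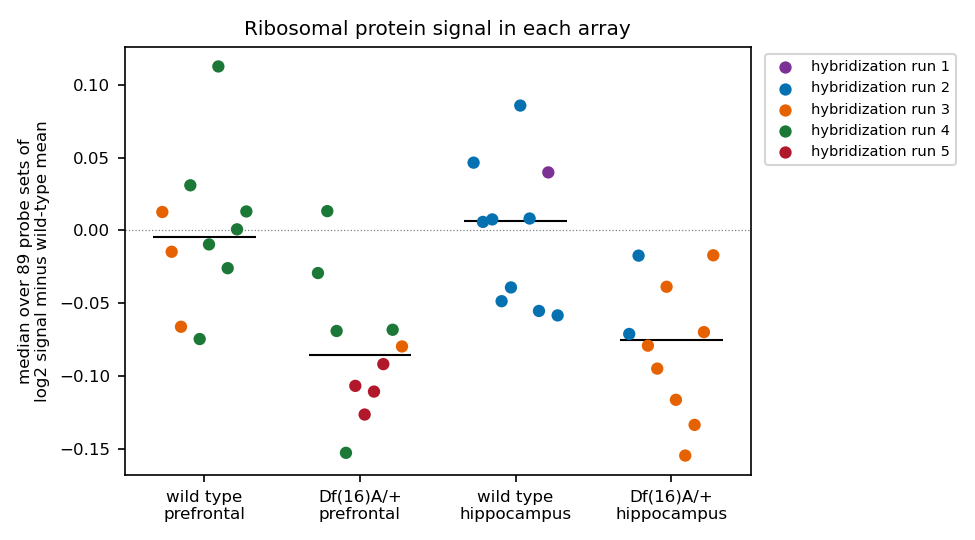
Each point is 1 array: the median over the 89 tested ribosomal protein probe sets of the log2 signal minus the wild-type mean of that region. Bars are group medians over 10 arrays and colours are hybridization runs. Df(16)A/+ arrays span -0.15 to 0.01 (prefrontal) and -0.15 to -0.02 (hippocampal), and in both regions they overlap the wild-type arrays.

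The shift was seen per array as well. In the plot of array medians the Df(16)A/+ prefrontal arrays ran from -0.15 through a median of -0.09 to 0.01, and the wild-type arrays from -0.07 through 0.00 to 0.11. The groups overlapped, and the highest value was that of wild-type replicate 7. Within run 4, which holds both genotypes, the Df(16)A/+ arrays had a median of -0.07 (5 arrays) and the wild-type arrays 0.00 (7 arrays). The 4 Df(16)A/+ arrays of run 5 lay between -0.13 and -0.09.

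Rpl22l1, a paralog of the large-subunit protein Rpl22 that can take its place in the ribosome, was the member that separated the genotypes most cleanly. Its probe set read from 13.13 through a median of 13.20 to 13.32 in wild type and from 12.75 through 13.04 to 13.13 in Df(16)A/+ prefrontal cortex. The ranges met at 13.13 after rounding without overlapping, so 10 of 10 Df(16)A/+ arrays lay below the lowest wild-type array. This was the case for no other member, and for 0.776% of all probe sets tested. The difference was -0.20 ± 0.042 (SE), or 87.2% of wild type, with an adjusted p of 0.0035 by limma. Under a block for the hybridization run it was -0.21 (adjusted p = 0.0090), and with the chip lot as a block -0.16 (adjusted p = 0.096).

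Rpl22, the parent gene, encodes a large-subunit protein that in mice is known to bind RNA and to repress Rpl22l1. Its probe sets disagreed. The probe set 1448398_s_at rose, from 10.11 to 10.42 (median 10.26) in wild type to 10.41 to 10.62 (median 10.47) in Df(16)A/+, a difference of 0.22 ± 0.042 with an adjusted p of 0.0016. All 10 Df(16)A/+ arrays exceeded the wild-type mean, the ranges overlapping only at their ends, and it rose with the run as a block too (0.23, adjusted p = 0.0097). The brightest Rpl22 probe set, 1453118_s_at, had a difference of -0.11 ± 0.041 (adjusted p = 0.075), and 1416603_at had 0.00 ± 0.029 (adjusted p = 0.94). No direction can therefore be given for the Rpl22 gene, and no relation between the 2 genes was tested.

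Rps4l, the paralog of the X-linked small-subunit gene Rps4x, had the largest fall among the members. Its signal ran from 6.84 through 7.27 to 7.82 in wild type and from 6.24 through 6.78 to 7.05 in Df(16)A/+. The ranges overlapped, with 7 of 10 Df(16)A/+ arrays below the lowest wild-type value. The difference was -0.52 ± 0.12, or 69.9% of wild type (adjusted p = 0.0058 by limma), and -0.57 under the run block, whose adjusted p was 0.021. Rps4x itself read 13.44 to 13.65 (median 13.51) in wild type and 13.39 to 13.55 (median 13.46) in Df(16)A/+, a difference of -0.06 ± 0.031 that did not pass (adjusted p = 0.16).

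Another paralog, Rpl7l1, whose protein works in the nucleolus during assembly of the large subunit, fell by 1 of its 3 probe sets. On 1452049_at it read 8.90 to 9.21 (median 9.03) in wild type and 8.68 to 9.01 (median 8.84) in Df(16)A/+, and all 10 Df(16)A/+ arrays were below the wild-type mean. The difference was -0.21 ± 0.054 (adjusted p = 0.010 by limma), and -0.28 under the run block, whose adjusted p was 0.0055. The probe set 1426386_at had a difference of nearly the same size, -0.22 ± 0.091, that did not pass (adjusted p = 0.10). The dim probe set 1439780_at, at 5.07 to 5.22 in wild type, had 0.01 ± 0.024. Its parent Rpl7 fell by 2 probe sets, with differences of -0.11 and -0.12 (adjusted p = 0.018 and 0.013), both of which passed under the run block, at 0.038 and 0.032. Rps27l, a paralog of Rps27 known as a p53 target, had -0.04 ± 0.038 on its brightest probe set and was not called.

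**Figure D2:**
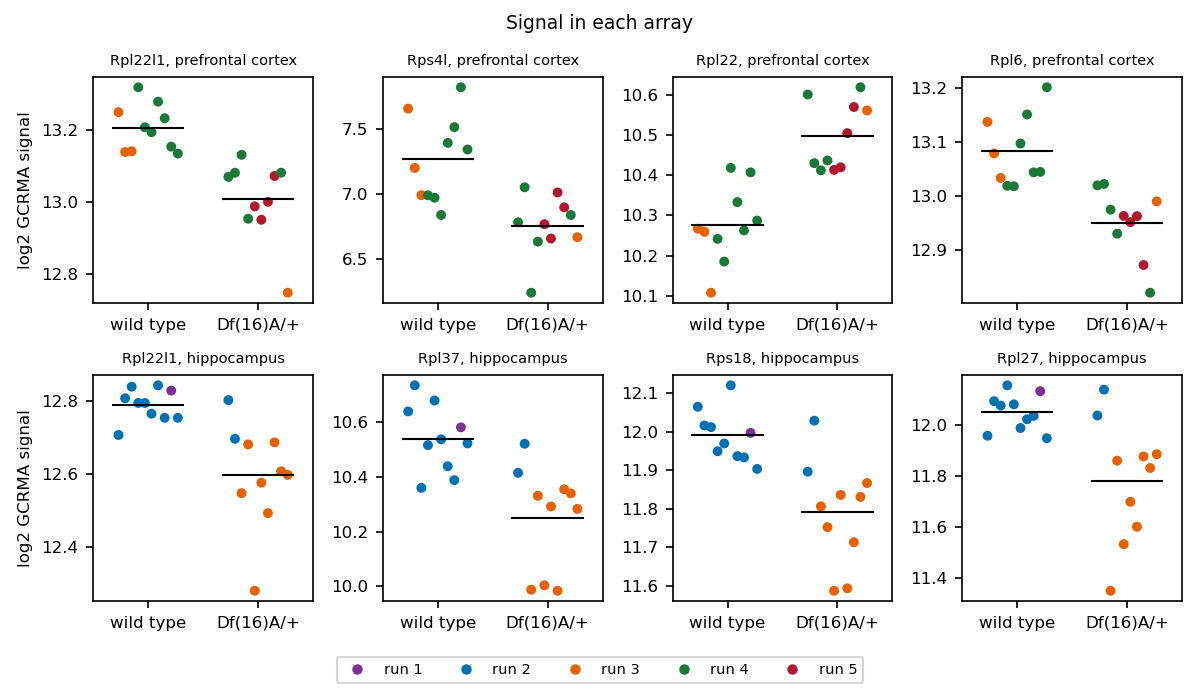
Log2 GCRMA signal in each array (points, 10 per genotype, coloured by hybridization run, bars at the mean) for 4 members in each region. In the prefrontal cortex Rpl22l1 separates the genotypes and Rps4l, Rpl22 and Rpl6 overlap, and in the hippocampus the 2 Df(16)A/+ arrays of run 2 lie among the wild-type arrays or at their lower edge.

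Among large-subunit proteins, 14 of 44 probe sets fell and 1 rose, against 12.5% lower and 5.94% higher over all probe sets tested. The median was -0.11 over 24 genes, and the assembly protein Rpl7l1 is counted here. Rpl4, whose protein lines the exit tunnel of the new chain, ran from 14.47 through 14.51 to 14.56 in wild type and from 14.31 through 14.39 to 14.50 in Df(16)A/+. These ranges overlapped at their ends, and the difference was -0.11 ± 0.028 (adjusted p = 0.0093). Rpl6 had a nearly equal fall, from 13.02 to 13.20 (median 13.06) to 12.82 to 13.02 (median 12.96), with a difference of -0.13 ± 0.032 (adjusted p = 0.0087). Rpl8, a core protein near the site of peptide bond formation, fell by 0.11 on the log2 scale (adjusted p = 0.010), and 10 of 10 Df(16)A/+ arrays were below the wild-type mean.

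Rpl10a, which forms the mobile stalk where spent tRNA leaves, read 12.93 to 13.17 (median 13.00) in wild type and 12.79 to 13.00 (median 12.91) in Df(16)A/+. It fell by 0.13 (adjusted p = 0.014). Rpl27a had the largest fall of this subunit, from 7.72 to 8.38 (median 8.10) to 7.47 to 8.01 (median 7.84), with -0.26 ± 0.082 (adjusted p = 0.030, and 0.031 with the run as a block). Rpl27 fell by 2 of its 3 probe sets, by 0.16 on 1453096_x_at (adjusted p = 0.0088) and by 0.13 on 1416099_at (adjusted p = 0.018). The remaining calls were Rpl13a on 1 of its probe sets (-0.13), Rpl19 (-0.12) and Rpl7a (-0.10).

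The proteins of the stalk that recruits elongation factors, and the 5S particle, did not pass. Rplp0 had -0.09 ± 0.038 (adjusted p = 0.096) and Rplp2 -0.07 ± 0.035 (adjusted p = 0.14). Rpl11, which with Rpl5 carries the 5S RNA and can bind Mdm2, had -0.09 ± 0.032 (adjusted p = 0.069), with 9 of 10 Df(16)A/+ arrays below the wild-type mean. These 3 values are close to the median of the members.

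Small-subunit proteins had 5 of 44 probe sets lower and none higher, in 4 of 21 genes, against 12.5% lower over all probe sets tested. The 4 genes include Rps4l, listed as a transcribed pseudogene. The median was -0.07 and 42 of 44 were below 0. Rps6, the protein that S6 kinases phosphorylate downstream of mTOR, fell on its probe set from 6.80 to 7.55 (median 7.24) to 6.54 to 7.15 (median 6.93). The groups overlapped, and the difference was -0.31 ± 0.093, or 80.6% of wild type (adjusted p = 0.024, against 0.16 with the run as a block). Rps18, in the head of the subunit, fell on 2 of its 3 probe sets, by 0.12 on 1455572_x_at (adjusted p = 0.025) and by 0.14 on 1435712_a_at (adjusted p = 0.032). Rps3, at the mRNA entry channel, disagreed between its probe sets: the dim 1455600_at fell by 0.22 (adjusted p = 0.022), and the bright 1435151_a_at had -0.06 ± 0.034 (adjusted p = 0.27).

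Several small-subunit genes known from human disease did not pass. Rps19, whose human counterpart is mutated in Diamond-Blackfan anemia, had -0.11 ± 0.044 (adjusted p = 0.095). Rps14, whose human counterpart lies in the interval lost in the 5q- syndrome, had -0.04 ± 0.034 (adjusted p = 0.43). Rpsa, also known as the laminin receptor, had -0.17 ± 0.064 (adjusted p = 0.065). Rps19bp1, the binding partner of Rps19, is counted with neither subunit. It fell from 8.95 to 9.28 (median 9.05) to 8.68 to 9.01 (median 8.91), with -0.21 ± 0.051 (adjusted p = 0.0075), and with the run as a block the adjusted p was 0.040.

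**Figure D3:**
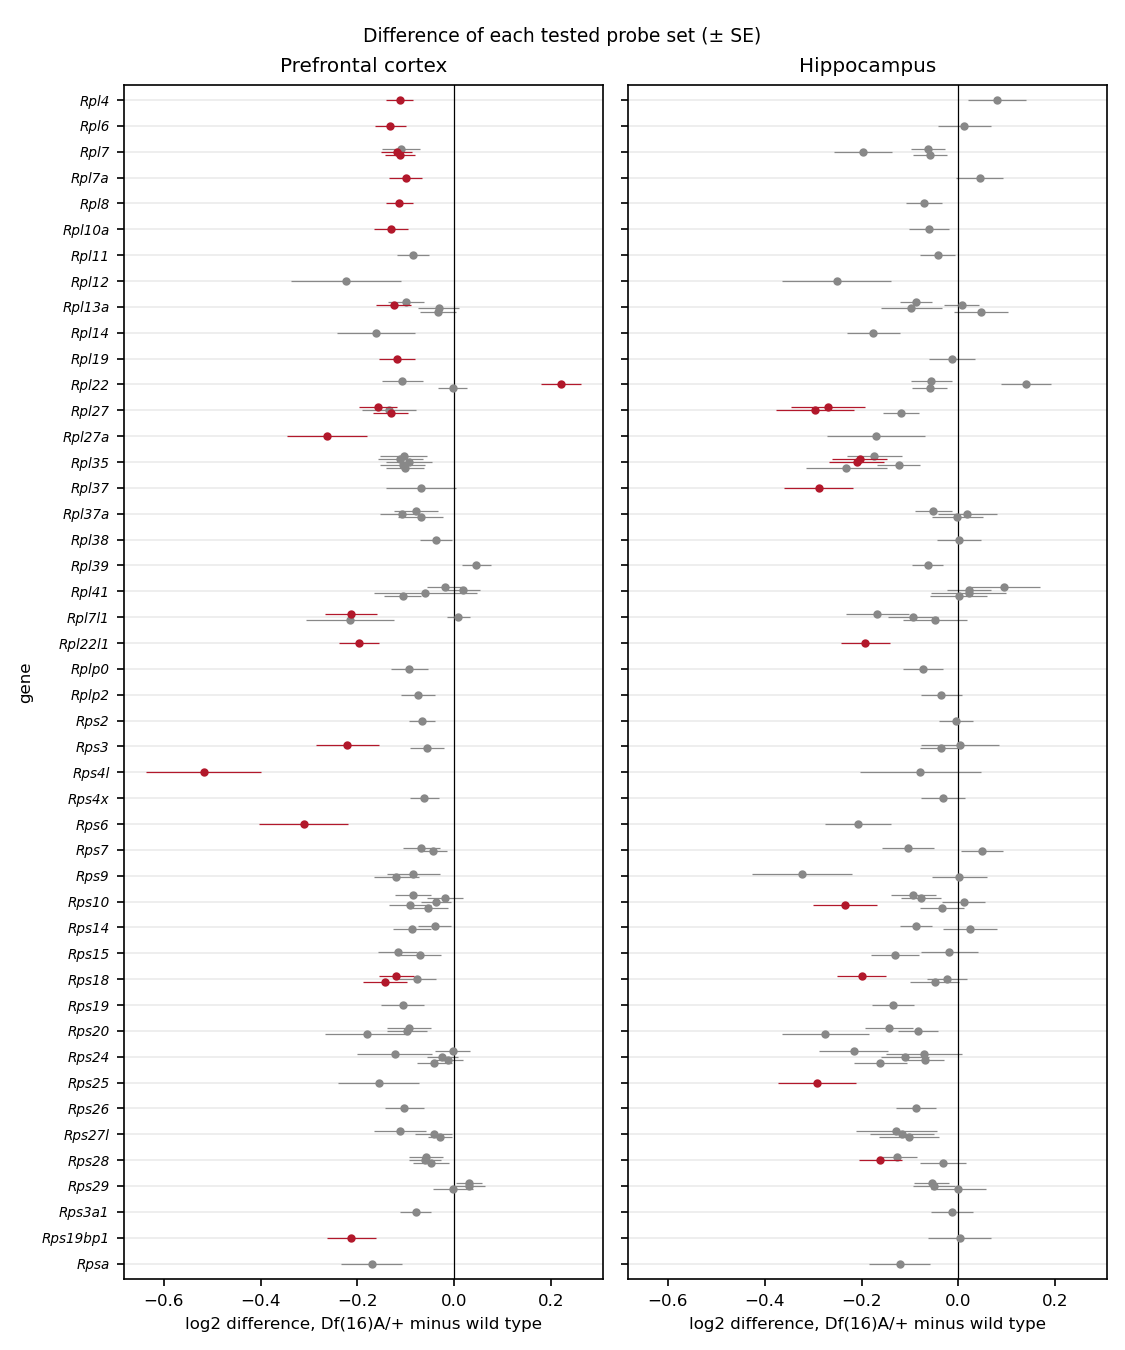
Difference of each of the 89 tested probe sets (points, with SE) by gene, in the prefrontal cortex and the hippocampus on the same log2 axis. Red points have an adjusted p under 0.05 by limma. Most points lie left of 0 in both panels, 83 of 89 and 71 of 89, and the red points are in the main different probe sets in the 2 regions, with 3 shared.

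The count of calls moved with the batches. With the run as a block 9 of 89 members were called, where 9.25% of all probe sets were, and all 21 called differences kept their sign. The 9 were Rpl22 (higher), Rpl22l1, Rps4l, Rps19bp1, both Rpl7 probe sets, Rpl7l1, Rpl27a and Rpl10a, the last with an adjusted p of 0.05 to 3 digits and thus at the threshold. With the chip lot as a block 2 were called (4.55% of all probe sets). With run and lot together none were, by limma (2.1% of all). At an unadjusted p under 0.05 that fit had 10 of 89 members and 3918 of all 21653 probe sets. Within run 4 alone 1 was called (2.36% of all), and within lot 1 alone 1 (1.52% of all). The members' share of calls was 10.1% with the run block, close to that of all probe sets, and below it in the other 4 fits. The median of the members was -0.08 with the run block and -0.07 in each of the other fits, and 77 to 79 of 89 were below 0.

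With 1 value per gene, from the brightest probe set, 14 of 46 genes fell and none rose, where 16.5% of all genes fell. Over plain probe sets, whose names end in _at alone and whose probes were designed for 1 transcript, 9 of 18 genes fell, where 14.7% of all did. The probe sets that the rule left out, because the annotation gave several genes, were lower in 42 of 97 tested cases (43.3%) and higher in none, with a median of -0.10. With the run as a block 11 of the 97 were lower, and with run and lot 2.

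Markers of other cell types moved in the same samples. Of 7 microglial markers 2 were lower, Tyrobp and C1qa at 75.0% and 81.6% of wild type, and the summed log2 signal of the list was 68.0 to 73.6 in wild type and 67.1 to 69.1 in Df(16)A/+. Of 3 tested endothelial markers 2 were lower, Slco1a4 (67.1%) and Itm2a (74.4%), with sums of 30.4 to 32.3 and 28.7 to 33.1. Of 7 tested mural and meningeal markers 1 was lower, Pdgfrb (78.6%), with sums of 60.4 to 66.1 and 59.4 to 66.3. The sums take in all markers on the array, tested or not, here 5 endothelial and 8 mural and meningeal ones. Neuronal markers were higher in 2 of 7 cases, Slc17a7 (124%) and Gad1 (108%), with sums of 93.7 to 94.8 and 93.8 to 95.1. Of 8 astrocyte markers, Slc1a3 and Slc1a2 were higher and Ntsr2 lower, with sums of 95.3 to 97.6 and 95.7 to 97.9. Ppp1r1b, a marker of the striatum, was at 136%. Of the other lists, Cnp of oligodendrocytes was at 88.8% and Sox11 of immature neurons at 108%, and no other marker was called. With the run as a block Slc17a7, Slc1a3, Slc1a2, Ppp1r1b, Cnp and Slco1a4 still passed, and Tyrobp (adjusted p = 0.064), C1qa (0.17), Itm2a (0.084), Pdgfrb (0.084), Gad1 (0.21) and Sox11 (0.075) did not, nor did Ntsr2. All of these lists' sums overlapped between genotypes, but some only in part. The microglial sum lay below every wild-type array in 8 Df(16)A/+ arrays and above every one in 0. The endothelial sum lay below in 7 and above in 1, and the neuronal sum above in 5 and below in 0. For mural and meningeal markers 2 lay above and 2 below, and for astrocytes 2 above and 0 below. The striatal sum lay above in 5 and below in 1. Sums of the hippocampal markers and of oligodendrocyte precursors each lay above in 5 and below in 0. Cortical and oligodendrocyte sums each lay below in 3 and above in 0. The part of these lists in the ribosomal protein result was not tested. The signal of the beta-actin 3' probe set minus the 5' one, a measure of RNA integrity, was 1.12 to 1.39 in wild type and 1.11 to 1.35 in Df(16)A/+, and with it as a covariate 22 members were called, against 19.8% of all probe sets.

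In the hippocampus 10 of 89 probe sets fell and none rose, in 8 genes, with a median difference of -0.07 and 71 of 89 below 0. Over all 21153 probe sets tested, 6.47% were called in either direction, 1.28% lower and 5.19% higher, with a median of 0.02 and 45.1% below 0. The falls ran from -0.16 to -0.30, or 89.4% to 81.4% of wild type. No member had all 10 Df(16)A/+ arrays below all wild-type arrays, against 0.142% of all probe sets. The median of all tested probe sets depended on the scaling: centring each array on its median moved it to 0.06, the members' median to -0.02 and the members called to 1. That 1 was Rpl37, and Rpl11 and Rplp2, not called in either scaling, went from just below 0 to just above it. Quantile normalization went the other way, with 15 members lower, where 2.6% of all probe sets were. The members' median was then -0.09, with 80 of 89 below 0, and that of all tested probe sets -0.01. The run block rests here on the 2 Df(16)A/+ arrays of run 2. With it no member was called by limma, where 0.156% of all probe sets were. At an unadjusted p under 0.05 it had 4 of 89 members and 1230 of all 21153 probe sets. With run and lot together again no member was called (0.18% of all probe sets).

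Rpl37, a large-subunit protein known to bind Mdm2, ran from 10.36 through 10.53 to 10.74 in wild type and from 9.98 through 10.31 to 10.52 in Df(16)A/+. All 10 Df(16)A/+ arrays lay below the wild-type mean and 8 below the lowest wild-type array. The difference was -0.29 ± 0.071, or 81.9% of wild type (adjusted p = 0.020), and -0.07 with the run as a block. Rpl22l1 read 12.71 to 12.84 (median 12.79) in wild type and 12.28 to 12.80 (median 12.60) in Df(16)A/+, with 9 of 10 Df(16)A/+ arrays below the lowest wild-type value. Its difference was -0.19 ± 0.050 (adjusted p = 0.027), and -0.03 with the run as a block. The 2 Df(16)A/+ arrays of run 2 read 12.70 and 12.80, and the 8 of run 3 read 12.28 to 12.69.

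Rpl27 fell by 2 probe sets, and the sign of both depended on the run. On 1453096_x_at it ran from 11.95 through 12.06 to 12.16 in wild type and from 11.35 through 11.85 to 12.14 in Df(16)A/+, with a difference of -0.27 ± 0.077 (adjusted p = 0.040). The 2 Df(16)A/+ arrays of run 2 read 12.04 and 12.14, inside the wild-type range, and the 8 of run 3 read 11.35 to 11.89, all below it. With the run as a block the difference was 0.05. On 1448217_a_at the difference was -0.30 ± 0.081 (adjusted p = 0.032), and 0.04 with the run as a block. The lowest readings of 1453096_x_at, 11.35, 11.53 and 11.60, came from the 3 Df(16)A/+ arrays on chips of lots 3 and 4.

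Rpl35, at the exit of the tunnel, fell by 2 of its probe sets, each with a difference near -0.20. The brightest, 1436840_x_at, read 13.15 to 13.56 (median 13.34) in wild type and 12.96 to 13.36 (median 13.16) in Df(16)A/+, with -0.21 ± 0.057 (adjusted p = 0.032), and -0.06 with the run as a block. The other, 1454856_x_at, went from -0.20 to 0.02 with the run as a block and so changed sign. Over the large subunit 6 of 44 probe sets fell, against 1.28% of all probe sets tested, with a median of -0.06. Rplp0 had -0.07 ± 0.041, Rplp2 -0.03 ± 0.042 and Rpl11 -0.04 ± 0.036, none of which passed. Rpl4 had 0.08 ± 0.059 and Rpl6 0.01 ± 0.055, on the other side of 0 from their prefrontal values.

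Of the small subunit 4 of 44 probe sets fell, in 4 genes, against 1.28% of all probe sets tested, with a median of -0.09. Rps18 read 11.90 to 12.12 (median 11.98) in wild type and 11.59 to 12.03 (median 11.82) in Df(16)A/+ on 1455572_x_at, and 9 of 10 Df(16)A/+ arrays were below the lowest wild-type array. Its difference was -0.20 ± 0.051 (adjusted p = 0.024), and -0.03 with the run as a block. Rps25, which the initiation of some viral and cellular mRNAs without a cap needs, read 7.32 to 7.75 (median 7.52) and 6.94 to 7.56 (median 7.34), with -0.29 ± 0.081 (adjusted p = 0.035). Rps28 fell by 0.16 on 1451101_a_at (adjusted p = 0.035), with 8 of 10 Df(16)A/+ arrays below the lowest wild-type array.

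Rps10, at the mRNA entrance, was called on 1 of 5 probe sets. On 1434854_a_at it read 12.92 to 13.24 (median 13.08) in wild type and 12.55 to 13.14 (median 12.84) in Df(16)A/+, with -0.23 ± 0.066 (adjusted p = 0.037). That difference was 0.02 with the run as a block. The other 4 probe sets had differences between -0.09 and 0.01, none called, of which 1438723_a_at was above 0. Rps6 (-0.21 ± 0.069, adjusted p = 0.072), Rps19 (-0.14 ± 0.043, adjusted p = 0.063), Rpsa (-0.12 ± 0.063, adjusted p = 0.24) and Rps4l (-0.08 ± 0.12, adjusted p = 0.72) did not pass.

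**Figure D4:**
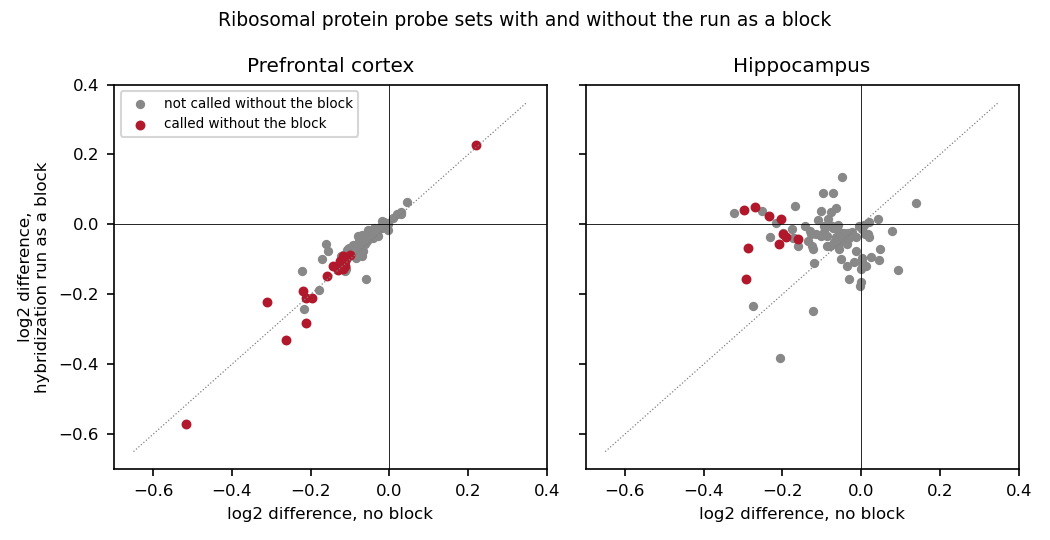
Difference of each tested member without a block (horizontal) and with the hybridization run as a block (vertical), both log2. Red points were called without the block, 21 prefrontal and 10 hippocampal ones. Prefrontal points follow the dotted line of equal values, and in the hippocampus 6 of the 10 red points keep their sign.

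Under the run block, 6 of the 10 called hippocampal differences kept their sign and 4 turned, those of both Rpl27 probe sets, 1 of Rpl35 and 1 of Rps10. The members' median was -0.03 and 70 of 89 were below 0. Blocking on chip lot, or taking lot 1 alone, limma called no member (2.06% and 1.88% of all probe sets). At an unadjusted p under 0.05 these fits had 24 and 25 members, and 3700 and 3716 of all 21153 probe sets. The members' median was -0.06 and 84 of 89 were below 0 in both. In the plot of array medians the Df(16)A/+ hippocampal arrays ran from -0.15 through -0.08 to -0.02 and the wild-type arrays from -0.06 through 0.01 to 0.09, with overlap. The 2 Df(16)A/+ arrays of run 2 lay at -0.07 and -0.02. With 1 value per gene 1 gene fell, where 0.647% of all genes did, with the mean over a gene's probe sets 8, where 1.48% did, and over plain probe sets none by limma, where 0.604% did. The probe sets with several annotated genes were lower in 10 of 97 cases, with a median of -0.08, and in none with the run as a block.

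Among cell markers in the hippocampus, Slc17a7 was at 130% of wild type, Prox1, a marker of dentate granule cells, at 121% and Fezf2, a cortical marker, at 116%, while C1qb of microglia was at 74.1% and Pdgfrb of mural cells at 72.4%. None of these 5 passed under the run block, where the log2 differences were 0.15, 0.14, 0.16, -0.05 and 0.00 in that order. Neuronal sums were 88.0 to 88.8 in wild type and 88.5 to 90.0 in Df(16)A/+, with 7 of 10 Df(16)A/+ arrays above every wild-type array. The choroid plexus list, none of whose 6 genes was called, had summed log2 signals of 33.5 to 59.5 in wild type and 35.8 to 57.9 in Df(16)A/+, which differ widely between arrays of either genotype. The microglial sums were 61.3 to 66.7 and 60.8 to 62.7, and the mural and meningeal sums 57.7 to 61.8 and 57.2 to 61.7. Their part in the result was not tested. The beta-actin 3' minus 5' signal was 1.18 to 1.65 in wild type and 1.16 to 1.38 in Df(16)A/+, and with it as a covariate 2 members were called, against 2.99% of all probe sets.

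Across regions 3 probe sets were lower in both, Rpl22l1, Rpl27 (1453096_x_at) and Rps18 (1455572_x_at). They were 14.3% of the prefrontal calls and 30% of the hippocampal ones. The hippocampal values of all 3 rest on run 3, as described above. Of the 89 member probe sets 67 were below 0 in both regions. Since 83 (prefrontal) and 71 (hippocampal) of the 89 were below 0 singly, most had to be below 0 in both. Whether the regions shared more members than these counts give was not tested, for calls or for signs. Taken singly, 57.1% (prefrontal) and 45.1% (hippocampal) of all probe sets tested were below 0. The shares of all probe sets that were called or below 0 in both regions are not given here. A test of the difference between the regions called no member by limma, where 2.53% of 22586 probe sets were called. At an unadjusted p under 0.05 it had 11 of 89 members and 4693 of all 22586 probe sets. The members' median difference of differences was 0.01 (hippocampus minus prefrontal cortex), against 0.04 over all probe sets tested. A constant offset between the regions cancels in this difference, but a difference of scale does not. The smallest p-values were those of Rpl4 (0.19, unadjusted p = 0.0050, adjusted p = 0.085), Rpl13a on 1455001_x_at (0.13, adjusted p = 0.11), Rpl39 (-0.11, adjusted p = 0.11), Rps24 on 1456628_x_at (-0.21, adjusted p = 0.12) and Rps19bp1 (0.22, adjusted p = 0.13). For Rpl22l1 the difference between regions was 0.00 (adjusted p = 0.97).

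The members varied little within a group. The median within-group standard deviation was 0.080 (prefrontal) and 0.107 (hippocampal), against 0.130 and 0.161 over all probe sets tested. The sets were not matched for signal level, and the part of level in this was not tested. The members' deviations from the group means tended to go together, with a median pairwise Pearson r of 0.36 and 0.23. These are medians over 3916 pairs, which share arrays, extracts and in part probes. No such r was computed over other probe sets, so it is not shown to be particular to the members. Rps4l and Rpl12 varied most.

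Other genes of the same pathway were counted by list, with 1 probe set per gene. In the prefrontal cortex 12.5% of all probe sets tested were lower and 5.94% higher. With the run as a block 6.26% were lower. With 1 value per gene 16.5% of all genes fell there. In the hippocampus 1.28% of all probe sets were lower, and 0.647% of all genes with 1 value per gene. Of 76 mitochondrial ribosomal proteins, a separate set that makes the ribosomes of mitochondria, 41 fell and none rose in the prefrontal cortex, with a median of -0.14. One of the 41 was Mrpl40 of the deleted interval, and Mrps12 was at 85.3% of wild type. In the hippocampus 2 of the 76 fell, Mrpl40 and Mrps21 (89.7%), with a median of -0.01. The run block left 25 of the 76 lower in the prefrontal cortex, and for Mrps21 in the hippocampus it turned the difference from -0.16 to 0.03, which was not called.

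Of 50 tested genes on the list of initiation factors 15 fell and 1 rose in the prefrontal cortex, with a median of -0.07. The list took all names that start with Eif and a digit, and Pabpc1, Pabpc4, Paip1 and Paip2. It therefore also holds genes that are not initiation factors themselves, such as Paip1 and Paip2, both among the 15. The smallest adjusted p-values were those of Eif3k and Eif3l, subunits of the eIF3 complex, at 85.2% and 80.3% of wild type. Eif4ebp2, a repressor of cap-dependent translation that mTOR inactivates, rose to 126% (adjusted p = 0.0058 by limma). Its paralog Eif4ebp1 went the other way and is among the 15 that fell. Both stand in the mTOR list as well, where 1 of 20 rose and 3 fell, Eif4ebp1, Larp4b and Rheb (90.7%), the kinase's direct activator.

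Of 58 ribosome assembly factors 11 fell in the prefrontal cortex and none rose, against 16.5% of all genes that fell there. Among the 11 were the helicase Ddx56 (75.5%) and Rrp7a (86.0%), and the list's median was -0.08. Of 18 genes of RNA polymerase I and 5S transcription 4 fell and 1 rose, with Gtf3a, the factor that starts 5S transcription, at 81.6% and Polr1c at 83.8%. Of 12 elongation and termination factors 1 fell, the release factor Etf1 (90.7%), and of 12 quality-control genes none changed. In the hippocampus 1 gene of these lists was called, the assembly factor Nhp2 at 86.5% of wild type (adjusted p = 0.048 by limma). Its adjusted p was 0.98 with the run as a block. In the prefrontal cortex that block left 11 genes of the initiation list and 7 assembly factors lower. It also left 2 genes of RNA polymerase I and 5S transcription and 3 of the mTOR list lower, and Etf1 did not pass.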

How the data were processed

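Expression was measured on 40 Affymetrix Mouse430_2 arrays from total RNA (Trizol, then RNeasy, per the labels' protocols). The authors deposited log2 signals made with GCRMA, per the submitters' processing notes, whose settings were not given. The array records served for batches alone. Groups came from sample titles, and nothing was left out.

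Each region was fitted with limma (version 3.58.1, R 4.3.3; lmFit and eBayes, 10 against 10 arrays, no covariate, two-sided), with Benjamini-Hochberg adjustment over all tested probe sets. The interaction was a contrast of 4 group means over 40 arrays. The fit was tested on simulated data with independent noise and no runs or lots, unlike these arrays. It recovered 8% (prefrontal) and 0% (hippocampal) of differences of 0.1, and 34% of those of 0.25 in each region. A member that did not pass is therefore not shown to be unchanged. Array number limits the precision. Alternatives were the filter, normalization, variance model, array weights, replicate, run and lot blocks, an actin covariate, single runs or lots, 1 fit of all arrays and other choices per gene. Leaving out each array and the run block of the interaction were added after seeing the data. Members and lists were chosen with earlier results of these data known. Named genes were the 10 smallest adjusted p-values per region, calls shared by regions or kept with the run block, paralogs with parents, stalk, 5S and other well-studied proteins, genes with probe sets of opposite sign, and the 5 smallest interaction p-values; other calls were named after their values were seen. Sequences are RefSeq's (GRCm38.p6).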

Additional observations from a re-analysis of the deposited data

Results flagged for a closer look

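In 16 of 176 groups of 10 arrays (44 named probe sets in 4 groups), 1 array stood far from the rest, its gap to the nearest other being large against the group's range (Dixon's test). Chance alone gives about 1 in 20. Among Df(16)A/+ prefrontal arrays, replicate 10 had the lowest Rpl22l1 (12.75, the next at 12.95), replicate 3 the lowest Rps4l (6.24), replicate 9 the highest Rpl7l1 on 1439780_at (5.21), and replicate 2 the highest Rpl39 (9.87) and the highest Rps10 on 1456497_x_at (13.90). Among wild-type prefrontal arrays, replicate 7 was highest for Rps18 on 1455572_x_at (12.72), Rps19 (12.45) and Rps27 (3.19), and replicate 4 for Rps27l on 1435429_x_at (9.85). In the wild-type hippocampus, replicate 9, the only array of run 1 and lot 5, was highest for Rps27l on 1435429_x_at (10.09) and Rpl7l1 on 1439780_at (6.05). Replicate 1 was highest for Rpl39l (3.26) and Rpl3l (3.03), both below the filter, and lowest for Rps19bp1 (8.02), and replicate 2 was lowest for Rps3 on 1435151_a_at (13.06). In the Df(16)A/+ hippocampus, replicate 3 was highest for Rplp2 (13.31).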

How the results depend on the processing

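The prefrontal count of 21 members became 38 with array weights, 9 blocking on run, 2 on lot, 0 on both (run and lot), and 1 within run 4 or within lot 1, and lay between 17 and 36 when each array was left out, the 36 without Df(16)A/+ replicate 2. Its 14 genes with 1 value per gene became 9 over plain probe sets. The hippocampal count of 10 became 4 with no filter, 1 with median centring, 16 with array weights, 2 with the actin covariate, 23 in 1 fit of all 40 arrays, and 0 with the run block, the lot block or both, within run 2 and within lot 1. It was 15 with quantile normalization, and 15 with a trend and robust variance. Leaving out each hippocampal array gave 3 to 22: 22 without Df(16)A/+ replicate 2, and 3 to 6 without wild-type replicates 2, 3, 4, 5 or 6 or Df(16)A/+ replicates 3, 5, 6, 7 or 9. Its 1 gene with 1 value per gene became 8 with gene means and 0 over plain probe sets. The interaction count of 0 became 1 with array weights. With the lot or the run as a block it stayed 0, where 1 and 15 of all 22586 probe sets were called. At an unadjusted p under 0.05 these 2 limma fits had 5 and 3 members, and 2713 and 2151 of all probe sets. With the run block, run and lot together, or within run 2, hippocampal Rpl27 was at 0.041 (1448217_a_at) and 0.048 (1453096_x_at) and Rps10 (1434854_a_at) at 0.023. The causes were not tested. Medians over the members stayed below 0 in both regions under every alternative run. Replicate numbers did not pair the samples: same-numbered arrays of the 2 genotypes correlated at -0.14 to 0.34 (prefrontal) and -0.14 to 0.31 (hippocampal), and 1 of 10 correlated best with its own number in each. With the replicate block the counts were 16, 4 and 0. In the last, the interaction, 10 members and 4680 of all 22586 probe sets were at an unadjusted p under 0.05. For the single named probe sets, over all alternatives, the direction and side of the threshold were kept in 466 prefrontal and 443 hippocampal values. A call was lost in 77 and 62 and gained in 10 and 11. The difference of a called probe set changed sign in 0 and 9, and an uncalled value crossed 0 in 20 and 48.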
